A study of Rattus norvegicus with 26 samples.

Results

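The genes of the rat major histocompatibility complex (MHC), called RT1, and the genes that load and display antigens with them were followed in the dentate gyrus (DG), a region of the hippocampus. Members were all genes whose symbol began with RT1- together with 16 named genes of antigen presentation, and the deposited transcript rows of each gene were summed by gene identifier. The rule gave 40 members among 17910 genes, 24 RT1 genes and 16 others, and 35 of them reached the mean of 5 normalized counts needed for a test, as did 15595 genes in all. By the names of the chains, 17 RT1 genes were class I and 7 were class II. The other members were 8 genes of the class I route (B2m, Tap1, Tap2, Tapbp, Erap1, Canx, Pdia3 and Nlrc5), 5 of the immunoproteasome (Psmb8, Psmb9, Psmb10, Psme1 and Psme2) and 3 of the class II route (Cd74, Ciita and Ctss). The 5 untested members were RT1-CE1, RT1-M4, RT1-M5, RT1-Db1 and Ciita.

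All 26 animals were male F344 rats of 6 months, with 1 RNA library from the DG of each. The Veh group (n = 10) received vehicle and belonged to a running study of brain aging. The Dox group (n = 8) received weekly intraperitoneal doxorubicin, a chemotherapy drug that damages DNA. The Dox + ABT group (n = 8) received the same doxorubicin and, by oral gavage in alternate weeks, ABT-263, a senolytic that blocks Bcl-2 family proteins. No rats here had ABT-263 alone, so an effect of that drug without doxorubicin cannot be told apart. Rats of the 3 groups went through behavioral testing before tissue was taken.

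Class I molecules pair a heavy chain, encoded by the class I RT1 genes, with beta-2 microglobulin (B2m), and show peptides cut in the cytosol to CD8 T cells. The immunoproteasome cuts those peptides, the Tap1 and Tap2 pump carries them into the endoplasmic reticulum, Erap1 trims them, and tapasin (Tapbp), calnexin (Canx) and Pdia3 help to fold and load the complex. Class II molecules pair an alpha with a beta chain and show peptides from endosomes to CD4 T cells. The invariant chain Cd74 guards their groove until cathepsin S (Ctss) cuts it and RT1-DM exchanges the remnant for peptide. Nlrc5 and Ciita are the coactivators of class I and class II genes, and in the resting brain class II is mostly a product of microglia and of macrophages at the brain's borders.

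Class II promoters are known for an X box, bound by the RFX complex, followed by a Y box, bound by NF-Y, and several class I route promoters for an interferon-stimulated response element (ISRE). Promoters from RefSeq (GRCr8, another assembly than the rn6 used for the expression values) were matched for 33 members. The 7 others were Ciita, Erap1, Nlrc5, Pdia3, RT1-CE7, RT1-DMb and RT1-M4. Both strands of the 250 bases before each start were searched for ACNGATG (the end of the X box), CTGATTGG (the Y box), GAAANNGAA (the ISRE core) and TTCNNNGAA (GAS, an interferon-gamma element). Of 33469 promoters, 8.55% held the X letters, 3.19% the Y letters, 8.12% the ISRE core and 7.67% the GAS letters. Among the 33 matched members these counts were 10, 8, 9 and 2. An X end followed 20 to 35 bases on by a Y box on the gene strand, a spacing chosen after the matches were seen, stood in 4 of all promoters (0.012%). These were RT1-Bb, RT1-Da, RT1-Db1 and RT1-Db2, a class II gene that was no member. The stretches of the 3 members are shown because they encode chains that bind antigen, the low class II group described below. The X and Y letters are in capitals, and the regions were chr20:4604169-4604214 (minus strand), chr20:4515330-4515376 (plus strand) and chr20:4560232-4560277 (minus strand).
RT1-Bb: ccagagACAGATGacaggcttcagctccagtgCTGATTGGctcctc
RT1-Da: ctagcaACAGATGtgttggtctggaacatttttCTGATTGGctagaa
RT1-Db1: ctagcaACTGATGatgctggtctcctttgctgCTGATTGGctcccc

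RT1-Ba held a Y box alone, and RT1-DMa and RT1-DOb held an X end alone. In the class I genes RT1-A2, RT1-S3, RT1-CE4 and RT1-CE5 the Y letters stood on the other strand, and in RT1-CE4 and RT1-CE5 they lay downstream of an X end at the same distance in each. These stretches are shown to set the class I arrangement beside that of class II, with X letters and reversed Y letters in capitals, from chr20:4872809-4872828 (plus strand), chr20:3509218-3509291 (minus strand) and chr20:3484125-3484198 (minus strand).
RT1-A2: tgtgaaCCAATCAGcgtcgt
RT1-CE4: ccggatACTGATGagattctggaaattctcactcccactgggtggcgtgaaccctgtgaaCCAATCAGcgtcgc
RT1-CE5: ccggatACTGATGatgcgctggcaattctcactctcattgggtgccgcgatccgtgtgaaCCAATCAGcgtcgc

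The ISRE core stood in B2m, Tap1, Tap2, Tapbp, Psmb10, Psme2, Ctss, RT1-N3 and RT1-S3. The 2 matches in Tapbp overlapped, as did the pair in RT1-N3 and 2 of those in Psmb10. For the members of the class I route on which results below turn, or that neighbour them in function, the stretches were chr3:129549174-129549194 (B2m, plus strand), chr20:4668649-4668669 (Tap1, minus strand), chr20:4652323-4652343 (Tap2, minus strand), chr20:4967883-4967909 (Tapbp, minus strand) and chr15:33052790-33052810 (Psme2, minus strand), with the core in capitals and, in Tap1, reversed.
B2m: gaacatGAAACTGAAaatggg
Tap1: gctgctTTCGGTTTCttcttc
Tap2: cgaagtGAAAGCGAAagcccg
Tapbp: ttgaggGAAAATGAAAGTGAAaggaaa
Psme2: gagagtGAAAGCGAAagctgg
No match to the 4 letter patterns was found in these windows of Psmb9, RT1-T24-4, RT1-A1, RT1-M6-2 or Cd74. The match says only where letters stand, and binding was not measured.

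**Figure D1:**
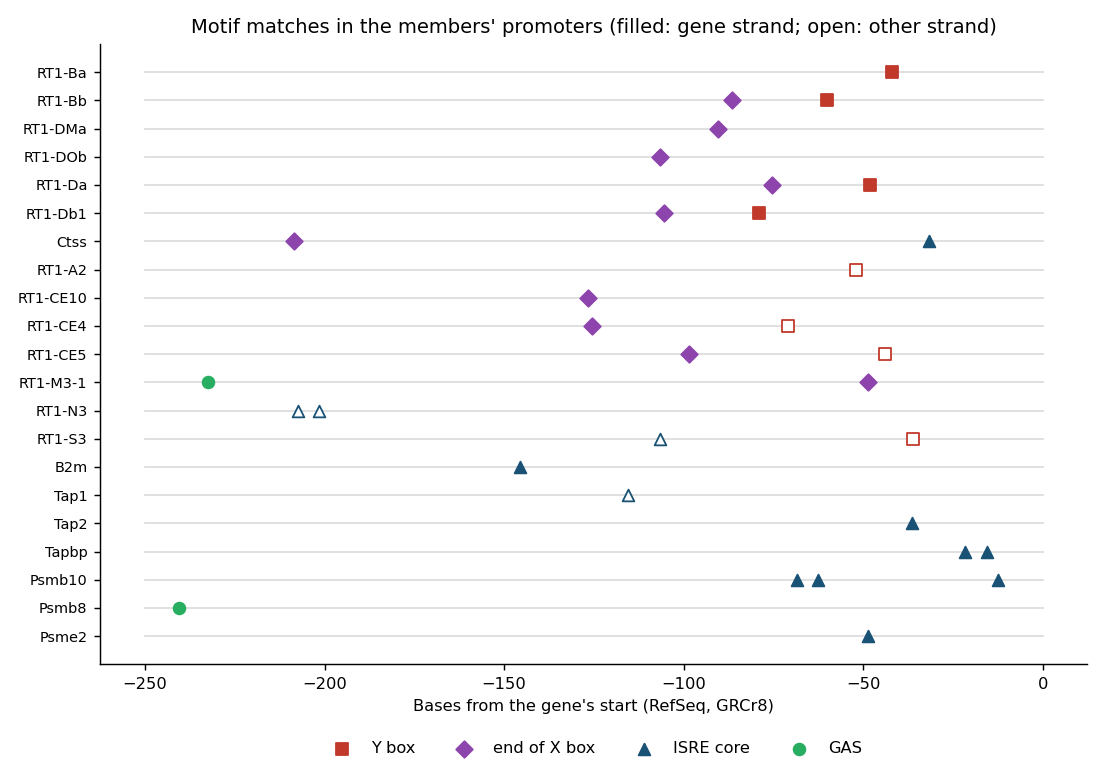
Matches to 4 motifs in the 250 bases before the start of the members that held any, with the distance from the start in bases on the x axis, filled symbols for the gene strand and open symbols for the other strand. RT1-Bb, RT1-Da and RT1-Db1 hold an X end followed by a Y box, and the ISRE core lies in B2m, Tap1, Tap2, Tapbp, Psmb10 and Psme2.

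Values were normalized counts, and the low values allowed an estimate of 10028400 to 24182300 reads per library. No 2 libraries were identical. The libraries fell into 2 kinds along the first principal component of their within-group deviations, which held 28.4% of the variance. The first kind held 16 libraries (4 Veh, 5 Dox and 7 Dox + ABT) and the second 10 (6 Veh, 3 Dox and 1 Dox + ABT). The share of the signal in ribosomal protein genes was 0.947% ± 0.127 (SD, n = 16) for the former and 1.53% ± 0.209 (SD, n = 10) for the latter. What set the kinds apart was not tested, and where the kind changed a call of a member or of a listed group, the changed value or count is given. The DG granule cell marker Prox1 was present in every group. Its level was 2467 ± 678 normalized counts (SD, n = 10) among Veh rats, 2587 ± 558 (n = 8) among Dox rats and 2813 ± 443 (n = 8) among Dox + ABT rats. In bulk tissue, fewer cells of a type and less RNA per cell cannot be told apart.

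Of the 35 tested members, 3 were lower and 0 higher in Dox than in Veh at an unadjusted p under 0.01 in limma, the study's threshold, against 1.85% of all tested genes lower and 1.02% higher. The 3 were B2m, Psmb9 and the class I gene RT1-T24-4. In Dox + ABT against Veh, 2 members were lower (Psmb9 and RT1-A2) and 0 higher, against 3.95% and 3.89% of all genes. In Dox against Dox + ABT, 2 members were lower in Dox (B2m and RT1-T24-4) and 1 was higher (RT1-M6-2), against 1.71% and 2.32% of all genes. No member passed an adjusted p under 0.05 in limma in any comparison, and 0.0192%, 0% and 0% of all genes did. At an unadjusted p under 0.05, 7, 5 and 7 members passed in the 3 comparisons, against 10.2%, 22.5% and 12.7% of all genes. The comparisons share groups and are therefore not independent of each other.

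In Dox against Veh, 28 of the 35 members had a lower fitted level in Dox, with a median log2 difference of -0.19, where 48.9% of all genes were lower and their median was 0.00. In Dox + ABT against Veh, 21 of 35 were lower, with a median of -0.09, and 50.1% of all genes were. In Dox against Dox + ABT, 25 of 35 were lower in Dox, with a median of -0.09, and 50.2% of all genes were. With library kind as a covariate the 3 medians were -0.13, -0.05 and -0.15. All fold changes are mean differences on the scale of log2(normalized count + 1). For genes with low values they depend on the added 1 and on rats near 0, and they can be larger than the group means give. RT1-Ba, for example, was at -1.01 in Dox against Veh, with group means of 7.72 (Veh) and 4.72 (Dox) normalized counts.

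**Figure D2:**
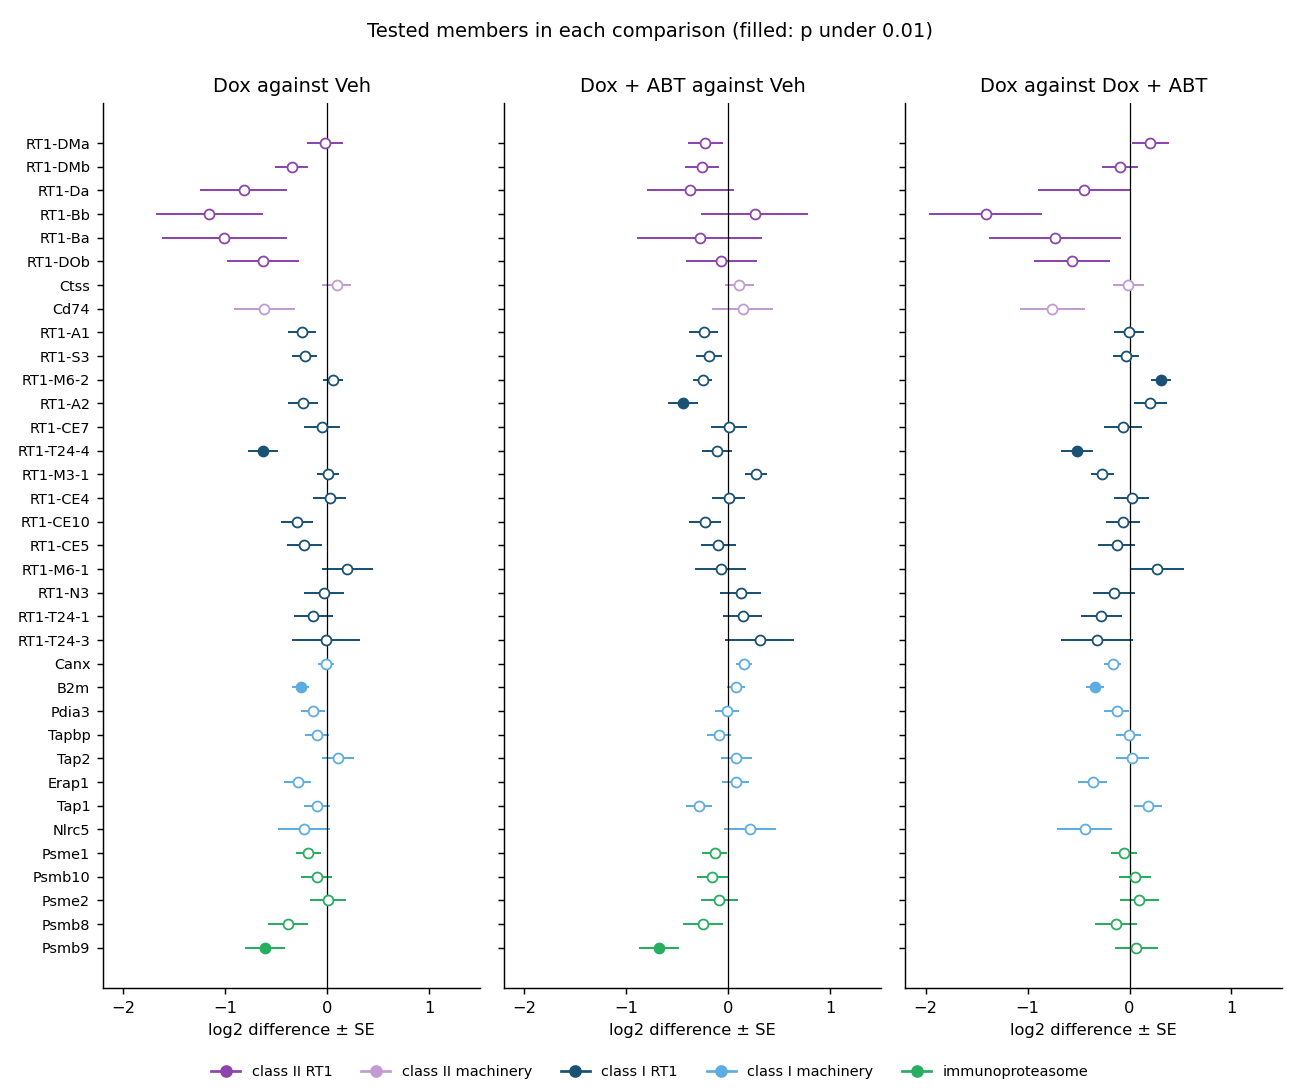
log2 difference ± SE of the 35 tested members in each comparison, coloured by class and filled where the unadjusted p was under 0.01. The class II chains RT1-Bb, RT1-Ba and RT1-Da lie farthest to the left in Dox against Veh with wide errors and open symbols, and the filled symbols are RT1-T24-4, B2m and Psmb9 there, RT1-A2 and Psmb9 in the middle plot, and RT1-M6-2, RT1-T24-4 and B2m in the right plot.

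The antigen-binding class II chains were near the detection limit in all groups, and no class II member passed the threshold over all rats with equal weight in any comparison. A single read was worth 0.696 to 1.51 normalized counts, depending on the library. The alpha chain RT1-Da ranged from 6.22 to 23.9 with a median of 10.5 normalized counts in Veh, from 0.769 to 19.5 with a median of 7.06 in Dox and from 3.21 to 19.1 with a median of 8.81 in Dox + ABT. The 3 lowest Dox values and the 3 lowest Dox + ABT values were under the lowest Veh value, and the groups otherwise overlapped. The log2 difference of Dox from Veh was -0.82 ± 0.43 (SE, limma, p = 0.064, adjusted p = 0.507).

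The beta chain RT1-Bb ranged from 0.691 to 16.3 with a median of 10.1 in Veh, from 0 to 11.3 with a median of 5.38 in Dox and from 2.41 to 21.8 with a median of 11.2 in Dox + ABT. The Veh median exceeded 7 of the 8 Dox values, the Dox + ABT median exceeded 7 as well, and the groups overlapped. RT1-Bb differed by -1.16 ± 0.53 between Dox and Veh (limma, p = 0.0364, adjusted p = 0.461) and by -1.41 ± 0.55 between Dox and Dox + ABT (p = 0.0166, adjusted p = 0.284). Its most abundant transcript row, tested alone, differed by -1.71 in the second comparison (p = 0.00555).

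RT1-Ba, the partner chain of RT1-Bb, ranged from 0 to 14.2 with a median of 7.39 in Veh, up to 16.3 with a median of 3.15 in Dox and up to 16.0 with a median of 5.56 in Dox + ABT. The lowest Dox and Dox + ABT rats had values indistinguishable from 0, and the Dox difference from Veh was -1.01 ± 0.61 (limma, p = 0.11, adjusted p = 0.567). RT1-Db1 had medians of 0.161 (Veh), 2.08 (Dox) and 3.47 (Dox + ABT), with a highest value of 9.98, and was not tested. Its rats in all 3 groups overlapped from near 0 upward.

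The chains that edit class II peptides passed only where libraries were weighted or taken by kind. With library weights, RT1-DMb was called in Dox against Veh, and RT1-DMa and RT1-DMb were called in Dox + ABT against Veh. With equal weights, RT1-DMa, the alpha chain of the exchange factor, had medians of 361 (Veh), 327 (Dox) and 278 (Dox + ABT) normalized counts, and its difference of Dox from Veh was -0.02 ± 0.17 (limma, p = 0.899, adjusted p = 0.973). Its partner RT1-DMb ranged from 93.9 to 195 with a median of 155 in Veh and from 78.8 to 161 with a median of 113 in Dox, and its Dox + ABT values ranged from 78.7 to 158. In either treated group, 7 of 8 rats were below the Veh median. The RT1-DMb difference of Dox + ABT from Veh was -0.26 ± 0.16 (limma, p = 0.132, adjusted p = 0.354), and that of Dox from Veh was -0.35 ± 0.16 (limma, p = 0.0431, adjusted p = 0.478). By kind of library it was 0.00 (first) and -0.67 (second), and in the latter RT1-DMb was called when that kind was fitted alone, and the difference between the kinds had p = 0.039 (limma). RT1-DOb, the beta chain of the factor that restrains RT1-DM, had medians of 6.6, 3.85 and 5.78 and differed by -0.63 ± 0.35 (limma, p = 0.0822, adjusted p = 0.539).

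The invariant chain Cd74 did not pass the threshold over all rats. It ranged from 24.2 to 106 with a median of 74.4 normalized counts in Veh, from 19.98 to 105 with a median of 40.2 in Dox and from 40.5 to 107 with a median of 73.8 in Dox + ABT. In Dox, 7 of 8 rats were below the Veh median and 4 of 8 below every Dox + ABT rat, while 1 Dox rat lay at the top of the Veh range. Cd74 differed by -0.62 ± 0.30 between Dox and Veh (limma, p = 0.05, adjusted p = 0.492) and by -0.76 ± 0.32 between Dox and Dox + ABT (p = 0.0241, adjusted p = 0.315). Without that rat, Dox replicate 10, Cd74 passed the threshold against Veh, Cd74 and RT1-Bb passed it against Dox + ABT, and the number of members called in the latter comparison was 5 rather than 3. RT1-Bb also passed in Dox against Veh without Veh replicate 2, and in Dox against Dox + ABT without Veh replicate 2, Dox replicate 1 or Dox + ABT replicate 5 or 6. Ctss, which cuts the invariant chain and is abundant in microglia, had medians of 1133, 1260 and 1239 and differed by 0.09 ± 0.14 between Dox and Veh (limma, p = 0.522, adjusted p = 0.831). Ciita, the class II coactivator, had medians of 1.56, 1.21 and 0.764, about the worth of a read, and was not tested.

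Across rats, Cd74 and RT1-Da varied together within the groups. The correlation of their log2 deviations from the group means was r = 0.73 (n = 26, permutation p = 6e-05, adjusted p = 0.00048 over 8 relations, two-sided) with rho = 0.77 (permutation p = 1e-05, the smallest the permutations can give, adjusted p = 8e-05). Without the 2 rats farthest from the median of Cd74, r was 0.69. Within the first kind of library r was 0.77 (n = 16) and within the second 0.68 (n = 9, the lone Dox + ABT library left out). Cd74 showed no such relation with the microglial marker Aif1 (r = -0.11, rho = -0.12, permutation p = 0.593 and 0.543, adjusted p = 0.642 and 0.734). With Ciita, r was 0.10 and rho 0.04 (permutation p = 0.637 and 0.864, adjusted p = 0.642 and 0.864). Ciita stood at about the worth of a read, so these values cannot show a relation or its absence. For Aif1, r was -0.07 without the 2 farthest rats, 0.53 in the first kind of library (n = 16, adjusted p = 0.15) and 0.02 in the second. For Ciita these values were -0.02, -0.27 and 0.42.

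**Figure D3:**
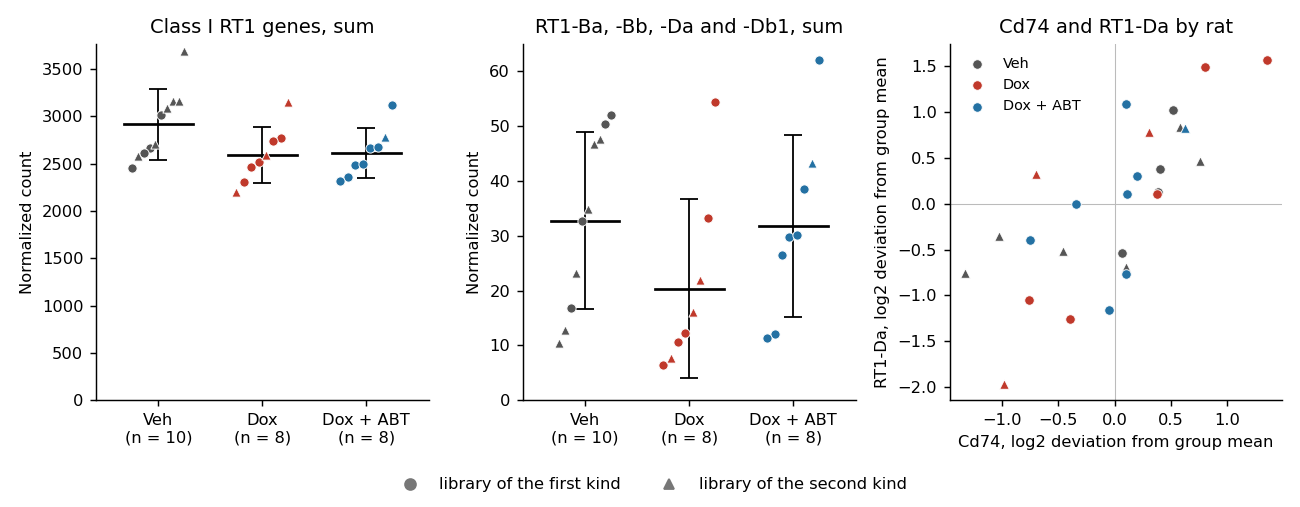
Summed normalized counts per rat of the 17 class I RT1 genes (left) and of RT1-Ba, RT1-Bb, RT1-Da and RT1-Db1 (middle), with the group mean and SD as lines, and the log2 deviations of Cd74 and RT1-Da from their group means (right), where each point is 1 rat. The summed class II chains lie between 6.44 and 54.4 in Dox and between 10.4 and 51.9 in Veh, and the points of the right plot follow a rising line with r = 0.73.

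Summed over the 17 class I RT1 genes, the level per rat was 2916 ± 377 normalized counts (SD) for Veh (n = 10), 2593 ± 298 for Dox (n = 8) and 2612 ± 262 for Dox + ABT (n = 8). The 4 class II binding chains summed, with no correction for gene length, to 32.7 ± 16.1 (Veh), 20.3 ± 16.3 (Dox) and 31.7 ± 16.6 (Dox + ABT). Per 1000 normalized counts of class I, the binding chains had a median of 12.4 (Veh), 5.77 (Dox) and 10.5 (Dox + ABT), and the ranges of the groups overlapped from 4.80 to 19.6. All 7 class II genes together, most of whose signal was RT1-DMa and RT1-DMb, summed to 536 ± 137 (Veh), 473 ± 73.4 (Dox) and 461 ± 128 (Dox + ABT), and their median share of all RT1 signal was 14.8% (Veh), 15.1% (Dox) and 14.6% (Dox + ABT). Over the tested genes, the median log2 difference of Dox from Veh was -0.10 for the 14 class I genes, of which 10 were lower, and -0.73 for the 6 class II genes, of which 6 were lower. Against Dox + ABT the medians were -0.06 and -0.51. Between Dox + ABT and Veh they were -0.09 and -0.24. Over the alternatives other than a minimum mean of 20 and leaving out a rat, the class II median lay between -0.58 and -0.26 against Dox + ABT (-0.26 with a pseudocount of 5, -0.27 with the replicate number as a block, -0.28 with library weights and -0.32 with quantile normalization) and between -0.32 and -0.13 for Dox + ABT against Veh (-0.13 with library kind as a covariate). The class I median lay between -0.24 and -0.04 in the former and between -0.13 and 0.00 in the latter. The class II median rests on the low genes, since with a minimum mean of 20, which leaves RT1-DMa and RT1-DMb, it was -0.19 in Dox against Veh and 0.05 against Dox + ABT. In Dox against Veh it was -0.42 with a pseudocount of 5 and -0.40 with the replicate number as a block. The class I median of Dox against Veh was 0.01 within first-kind libraries and -0.22 with that block, so its direction was not stable. The difference between the classes was not tested.

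RT1-T24-4, a class I gene of the T24 group, had the largest difference of Dox from Veh among the called members, at -0.63 against -0.61 for Psmb9. With library weights the order was the other way, at -0.48 against -0.72. RT1-T24-4 ranged from 194 to 396 with a median of 238 normalized counts in Veh, from 102 to 206 with a median of 184 in Dox and from 209 to 264 with a median of 234 in Dox + ABT. All 8 Dox values were under the Veh median, 5 were under the lowest Veh value, and all 8 were under the lowest Dox + ABT value, although the highest Dox and the lowest Dox + ABT rat were close. It was the only tested member whose Dox and Dox + ABT groups did not overlap, and 0.135% of all genes did not. In the comparisons with Veh no member's groups failed to overlap, against 0.0192% of all genes for Dox and 0% for Dox + ABT. The log2 difference was -0.63 ± 0.15 between Dox and Veh (limma, p = 0.000208, adjusted p = 0.114), -0.51 ± 0.16 between Dox and Dox + ABT (p = 0.00252, adjusted p = 0.183) and -0.11 ± 0.15 between Dox + ABT and Veh (p = 0.453, adjusted p = 0.68). Within the first kind of library the Dox difference from Veh was -0.66, and within the second kind it was -0.43 (limma, p = 0.0519), which missed the threshold with 9 libraries. The T24 neighbours RT1-T24-1 and RT1-T24-3 had medians of 17.7, 15.6 and 20.2 and of 11.01, 10.5 and 12.6, and differed by -0.14 ± 0.19 and -0.01 ± 0.34 between Dox and Veh (limma, adjusted p = 0.81 and 0.991).

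The classical class I genes RT1-A1 and RT1-A2 were lower on average in both treated groups, and 1 of these differences passed. RT1-A2 ranged from 229 to 485 with a median of 306 in Veh, from 170.0 to 443 with a median of 251 in Dox and from 175 to 309 with a median of 218 in Dox + ABT. Of the Dox + ABT values, 6 were under the lowest Veh value. The difference of Dox + ABT from Veh was -0.45 ± 0.15 (limma, p = 0.00568, adjusted p = 0.115), and that of Dox from Veh was -0.24 ± 0.15 (p = 0.118, adjusted p = 0.574). With library kind as a covariate the first was -0.32 (p = 0.0415), and within the first kind alone it was -0.33 (p = 0.0115). It also missed the threshold when Veh replicate 1, 6 or 9 or Dox + ABT replicate 3, 5 or 6 was left out, with p-values up to 0.0153. Of its 2 transcript rows, the first differed by -0.21 (limma, p = 0.303) and the second by -0.61 (p = 0.00334). RT1-A1, spread over 6 rows, had medians of 609, 529 and 570 and differed by -0.25 ± 0.14 between Dox and Veh (limma, p = 0.0825, adjusted p = 0.539). By kind of library the difference was -0.04 (first) and -0.50 (second), and in the latter RT1-A1 was called when that kind was fitted alone, and the difference between the kinds had p = 0.0973 (limma).

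RT1-M6-2, from the M region, was the only member called higher in Dox than in Dox + ABT. It ranged from 256 to 436 with a median of 381 in Veh, from 340 to 430 with a median of 381 in Dox and from 233 to 358 with a median of 312 in Dox + ABT. All 8 Dox rats were above the Dox + ABT median and 5 were above every Dox + ABT rat. The difference was 0.31 ± 0.10 (limma, p = 0.00483, adjusted p = 0.204), that of Dox + ABT from Veh was -0.25 ± 0.10 (p = 0.0136, adjusted p = 0.137), and that of Dox from Veh was 0.06 ± 0.10 (p = 0.558, adjusted p = 0.845). The call rested on the first of its 2 rows, at 0.65 (limma, p = 0.00386), while the second was at 0.11 (p = 0.401). It was lost in the first kind of library alone (0.27, p = 0.0202) and without Dox replicate 1 or Dox + ABT replicate 3 or 4, with p-values up to 0.0152.

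The other class I genes did not pass in the main fit. RT1-M3-1 was called in Dox + ABT against Veh with library weights, and also when Veh replicate 10 was left out. With transcript rows tested alone, it was called lower in Dox than in Dox + ABT. That call rested on a row with a mean of 8.70 normalized counts (-1.24, limma, p = 0.00384). Its most abundant row was at -0.21 (limma, p = 0.0878). RT1-S3 was called lower in Dox than in Veh with the replicate number as a block. RT1-M3-1, whose product is known for presenting formylated peptides, had medians of 163, 162 and 196 and was above the Veh median in 8 of 8 Dox + ABT rats, with a difference of 0.27 ± 0.11 (limma, p = 0.0201, adjusted p = 0.156). RT1-S3 had medians of 411, 366 and 343 and differed by -0.22 ± 0.12 between Dox and Veh (limma, p = 0.0848, adjusted p = 0.543). RT1-CE10 had medians of 136, 112 and 121, with 4 Dox values under the lowest Veh value, and differed by -0.29 ± 0.16 (limma, p = 0.0734, adjusted p = 0.525). RT1-CE4, RT1-CE5, RT1-CE7, RT1-M6-1 and RT1-N3 had differences of Dox from Veh between -0.23 and 0.20, each with an unadjusted p of 0.201 or more in limma. RT1-CE1, RT1-M4 and RT1-M5 had group medians between 0.79 and 5.74 normalized counts. Class I RT1 genes are close copies of each other that can share reads, and the rn6 reference carries the MHC haplotype of the BN strain rather than that of F344, so the division of reads among single class I genes is uncertain, also for the called ones.

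B2m, the light chain shared by all class I molecules and a single-copy gene on another chromosome than RT1, was lower in Dox than in either other group. It ranged from 1871 to 3041 with a median of 2316 normalized counts in Veh, from 1591 to 2403 with a median of 1932 in Dox and from 2095 to 2851 with a median of 2451 in Dox + ABT. In Dox, 7 of 8 rats were below the Veh median and all 8 below the Dox + ABT median, with 3 below every Veh rat and 6 below every Dox + ABT rat. The log2 difference was -0.26 ± 0.08 between Dox and Veh (limma, p = 0.0043, adjusted p = 0.281), -0.34 ± 0.09 between Dox and Dox + ABT (p = 0.000755, adjusted p = 0.15) and 0.07 ± 0.08 between Dox + ABT and Veh (p = 0.389, adjusted p = 0.626). Within the first kind of library the Dox difference from Veh was -0.36, and within the second it was -0.19 (limma, p = 0.179). The call against Veh was lost without Veh replicate 6 (p = 0.0102) or Dox replicate 14 (p = 0.0141), and that against Dox + ABT was kept whichever rat was left out. Across rats, B2m deviations did not follow those of RT1-A1 (r = 0.17, rho = 0.23, n = 26, permutation p = 0.399 and 0.263, adjusted p = 0.642 and 0.702) or of Cd74 (r = 0.22, rho = 0.19, permutation p = 0.29 and 0.355, adjusted p = 0.642 and 0.709). Without the 2 farthest rats r was 0.01 and 0.11, within the first kind of library 0.20 and 0.12, and within the second 0.19 and 0.08.

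**Figure D4:**
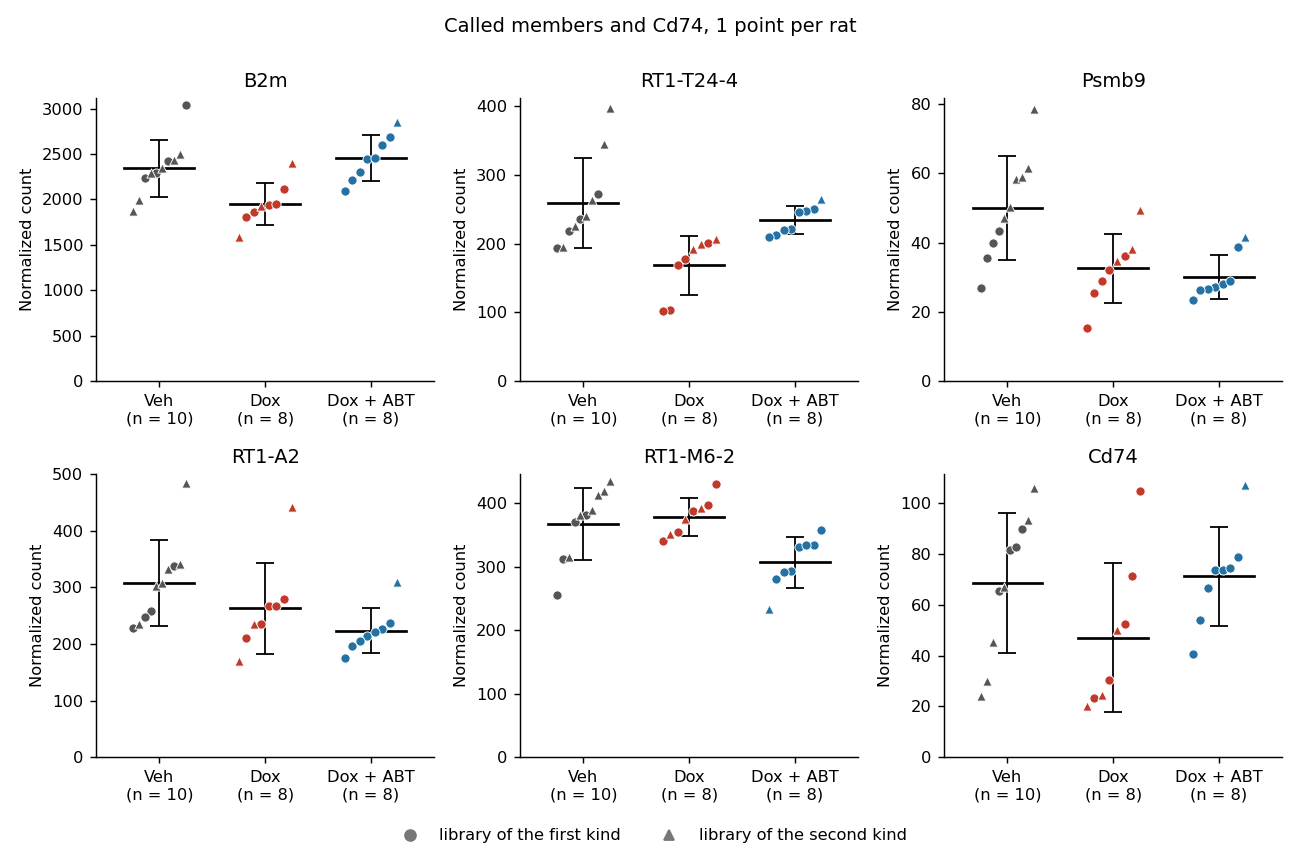
Normalized counts of the 5 members called in any comparison and of Cd74, 1 point per rat, with the group mean and SD as lines and the kind of library as the symbol. In RT1-T24-4 all Dox rats lie below all Dox + ABT rats, with means of 169 in Dox and 234 in Dox + ABT, and Dox is also the lowest group in B2m, with overlap.

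The transporter and the chaperones of the class I route did not pass in the main fit. With library weights, Tap1 and Canx were called in Dox + ABT against Veh, and Canx in Dox against Dox + ABT. Canx was also called in Dox + ABT against Veh with quantile normalization. Tap1 ranged from 68.5 to 135 with a median of 110 in Veh, had a median of 94.2 in Dox and 89.1 in Dox + ABT, and differed by -0.11 ± 0.13 between Dox and Veh (limma, p = 0.414, adjusted p = 0.784) and by -0.29 ± 0.13 between Dox + ABT and Veh (p = 0.0321, adjusted p = 0.185). All 8 rats of either treated group were below the Veh median of Tap1. Its partner Tap2 had medians of 221, 236 and 220, and Tapbp of 278, 249 and 246, with p-values of 0.39 or more in all comparisons in limma. The peptide trimmer Erap1 ranged from 140 to 217 with a median of 168 in Veh, from 79.8 to 189 with a median of 146 in Dox and from 145 to 212 with a median of 166 in Dox + ABT. Erap1 differed by -0.29 ± 0.13 between Dox and Veh (limma, p = 0.0341, adjusted p = 0.459) and by -0.36 ± 0.14 between Dox and Dox + ABT (p = 0.0138, adjusted p = 0.275), and the latter was -0.42 (p = 0.00335) with library kind as a covariate. Its 2 transcript rows went opposite ways in Dox against Veh, at -0.41 (limma, p = 0.00858) and 0.71 (p = 0.0837). Nlrc5, the class I coactivator, was low, with medians of 12.5, 11.4 and 15.4, and differed by -0.23 ± 0.26 between Dox and Veh (limma, p = 0.376, adjusted p = 0.762). Its deviations did not follow those of RT1-A1 (r = 0.10, rho = 0.12, n = 26, permutation p = 0.642 and 0.55, adjusted p = 0.642 and 0.734). Without the 2 farthest rats r was 0.12, and within the kinds of library it was 0.19 and -0.23.

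The general chaperones Canx and Pdia3, which serve many glycoproteins beside class I, had medians of 3911, 3953 and 4634 and of 2103, 1796 and 2075. Their pooled differences of Dox from Veh were -0.01 ± 0.08 and -0.14 ± 0.12 (limma, p = 0.901 and 0.238). These means joined opposite directions in the kinds of library. For Canx the difference was -0.24 in the first kind and 0.22 in the second, and for Pdia3 it was -0.32 and 0.22. Pdia3 was called lower in Dox, than in Veh and than in Dox + ABT, when the first kind was fitted alone.

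The immunoproteasome had 1 called member, Psmb9, with Psmb8 and Psme1 also called in Dox against Veh with library weights and Psme1 without Veh replicate 11. Psmb9, the interferon-induced subunit beta-1i, ranged from 26.8 to 78.5 with a median of 48.7 normalized counts in Veh, from 15.3 to 49.6 with a median of 33.4 in Dox and from 23.4 to 41.5 with a median of 27.7 in Dox + ABT. All 8 Dox + ABT rats and 7 of 8 Dox rats were below the Veh median, and the groups overlapped. The difference was -0.61 ± 0.20 between Dox and Veh (limma, p = 0.00438, adjusted p = 0.281), -0.68 ± 0.20 between Dox + ABT and Veh (p = 0.00185, adjusted p = 0.109) and 0.07 ± 0.21 between Dox and Dox + ABT (p = 0.751, adjusted p = 0.918). With the kind as a covariate the difference was -0.47 (limma, p = 0.00554) for Dox and -0.38 (p = 0.0309) for Dox + ABT. Within the first kind alone these were -0.42 (p = 0.106) and -0.33 (p = 0.165), both short of the threshold. The call for Dox was also lost without Veh replicate 3 (p = 0.0107) or Dox replicate 2 (p = 0.0156).

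The other inducible subunit encoded beside the Tap genes, Psmb8, had medians of 65.1, 47.3 and 50.8 and differed by -0.38 ± 0.20 between Dox and Veh (limma, p = 0.0624, adjusted p = 0.505). Psmb10 had medians of 379, 319 and 331, and the activator subunits Psme1 and Psme2 had medians of 512, 410 and 447 and of 69.9, 61.7 and 63.5. The smallest unadjusted p of these 3 in any comparison was 0.137 (Psme1, limma, Dox against Veh). Psmb9 and Tap1, neighbours transcribed away from each other, varied together across rats (r = 0.51, rho = 0.49, n = 26, permutation p = 0.00761 and 0.0124, adjusted p = 0.0304 and 0.0497). This relation did not hold without the 2 rats farthest from the median of Tap1 (r = 0.32, permutation p = 0.129) or within the first kind of library (r = 0.12, n = 16, permutation p = 0.665), and r was 0.61 in the second (n = 9).

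Genes that work beside the members were read from listed groups. For all lists below, 1.85% of all genes were called lower and 1.02% higher in Dox against Veh. The shares were 3.95% and 3.89% in Dox + ABT against Veh, and 1.71% and 2.32% in Dox against Dox + ABT. At an unadjusted p under 0.05 in limma, 10.2%, 22.5% and 12.7% of all genes passed. No such share was taken for the fit with library kind as a covariate. Of 14 other genes of the class I route, 0 passed the threshold in any comparison in limma, with 2, 3 and 0 at an unadjusted p under 0.05, and the smallest p were those of the chaperone Hspa5 in Dox against Veh and of Tapbpl in Dox + ABT against Veh. With library kind as a covariate, 2 of the 14 were called lower in Dox than in Dox + ABT. Of 12 tested genes of the class II route, 3 were lower and 0 higher in Dox than in Veh, and 2 were lower with the covariate. These were the lysosomal proteases Lgmn (1197 ± 101 in Veh and 995 ± 89.4 in Dox, log2 difference -0.27, limma, p = 0.000313, adjusted p = 0.114) and Ctsh (-0.45, p = 0.00661, adjusted p = 0.307), and the ubiquitin ligase Marchf8 (-0.22, p = 0.00845, adjusted p = 0.33), which can remove class II from the cell surface. Marchf8 was also lower in Dox than in Dox + ABT (-0.23, limma, p = 0.00895, adjusted p = 0.244). Of 19 regulators of MHC genes, Rfxank, a subunit of the X box factor RFX, was lower in Dox than in Veh (-0.28, limma, p = 0.00816, adjusted p = 0.323), and Nfyb, a subunit of the Y box factor, was higher in Dox + ABT than in Veh (0.30, p = 0.00906, adjusted p = 0.123), a call that was lost with library kind as a covariate. The other RFX subunits Rfx5 and Rfxap differed by 0.04 and -0.02 between Dox and Veh. Of 5 tested class I-like genes outside RT1, Procr, the endothelial protein C receptor, was lower in Dox than in Veh (-0.89, limma, p = 0.00308, adjusted p = 0.252).

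Of 23 tested interferon-response genes, 4 were lower and 0 higher in Dox than in Veh, and the median log2 difference of the list was -0.34. Among the fitted differences 19 were negative and 4 positive, the latter without passing. Of these, Rsad2 was at 24.2 ± 10.7 (Veh) and 78.3 ± 117 (Dox), a difference of 0.69, and Ifit3 differed by 0.34. The antiviral GTPase Mx2 was at 327 ± 69.9 (Veh), 215 ± 84.3 (Dox) and 253 ± 58.0 (Dox + ABT) normalized counts (SD), with a Dox difference from Veh of -0.69 (limma, p = 0.00109, adjusted p = 0.17). The guanylate-binding protein Gbp2 (-0.81, adjusted p = 0.194) and the GTPase Irgm (-0.67, adjusted p = 0.212) were also lower. Bst2, which tethers virus particles, was at 60.7 ± 22.4 (Veh), 34.8 ± 16.0 (Dox) and 66.5 ± 14.3 (Dox + ABT), and was lower in Dox than in Veh (-0.84, limma, adjusted p = 0.166) and than in Dox + ABT (-1.01, p = 0.000241, adjusted p = 0.121). In Dox + ABT against Veh, 0 of the 23 passed in limma, with 2 at an unadjusted p under 0.05 and a median of -0.24, which was -0.05 with library kind as a covariate. In Dox against Dox + ABT, Bst2 was the 1 gene called, and 3 were called lower with library kind as a covariate. Of the 23 differences there, 14 were negative and 9 positive. Rsad2 (0.98, limma, p = 0.0481) and Ifit3 (0.83, p = 0.0418) were higher in Dox without passing.

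Markers of the cells that could carry MHC transcripts also differed. Of 13 tested microglial markers, 5 were lower and 0 higher in Dox than in Veh (among them Aif1, Cx3cr1, Tmem119 and Itgam, with log2 differences from -0.64 to -0.50), and the summed level of the list spanned 5038 to 8946 normalized counts (Veh), 4982 to 7204 (Dox) and 4892 to 7953 (Dox + ABT). C1qa, C1qb and C1qc differed from Veh in the other direction without passing, by 0.18, 0.12 and 0.27. Against Dox + ABT they were at 0.24, 0.28 and 0.41, also without passing. In Dox + ABT against Veh, Csf1r and Trem2 were lower, by -0.48 each. With library kind as a covariate, the microglial calls were 3 in Dox against Veh, 0 in Dox + ABT against Veh and 2 lower in Dox against Dox + ABT. Of 6 endothelial markers, Slco1a4 and Itm2a were lower in Dox than in Veh (-0.96 and -0.75) and than in Dox + ABT (-0.91 and -0.99), while Flt1 and Cldn5 differed in the other direction without passing (0.52 and 0.21 against Veh, 0.46 and 0.57 against Dox + ABT). The endothelial sums ranged from 1396 to 4441, 1352 to 3141 and 1363 to 2848. Of 6 tested markers of meninges and choroid plexus, Lum was lower in Dox than in Veh and than in Dox + ABT (-0.90 and -0.77), 2 markers were called lower in the latter comparison with library kind as a covariate, and the sums ranged from 204 to 418, 187 to 340 and 235 to 835. Of 5 astrocyte markers, Gfap, Aqp4 and Aldh1l1 were lower in Dox than in Veh (-0.75, -0.43 and -0.43), Aldh1l1 was lower in Dox + ABT than in Veh (-0.47) and Aqp4 was lower in Dox than in Dox + ABT (-0.45). Slc1a3 and Gja1 did not pass, at 0.03 and 0.06 in Dox against Veh and 0.25 and 0.18 in Dox + ABT against Veh. With library kind as a covariate, the astrocyte calls were 3, 0 and 2 in the 3 comparisons. The astrocyte sums ranged from 36226 to 56558, 29841 to 37275 and 34805 to 50607. Sums were taken over the genes found, and none of those was at 0 in all rats. The part of any of these lists in the MHC results was not tested.

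Of 7 tested markers of perivascular macrophages, 3 of dendritic cells and 3 of T and NK cells, 0 passed in any comparison in limma. At an unadjusted p under 0.05, 1 dendritic marker passed in Dox against Veh (Clec9a, -0.55) and 1 in Dox against Dox + ABT (Clec10a, 0.42). The sums of the macrophage list ranged from 96.7 to 158, 96.2 to 178 and 89.2 to 139, those of the dendritic list from 92.3 to 145, 97.7 to 149 and 84.7 to 132, and those of the T and NK cell list from 92.3 to 258, 101 to 233 and 88.4 to 315. The 4 neutrophil markers found summed to at most 18.2 and were not tested, and of the 5 B cell markers none was analysed here. Of the 5 tested granule cell markers, C1ql2 was lower in Dox + ABT than in Veh (-0.46, limma, p = 0.000697, adjusted p = 0.109), while Plk5 and Prox1 were at 0.63 and 0.22 without passing. In Dox against Veh, 0 of the 5 passed in limma, with 0 at an unadjusted p under 0.05.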

How the data were processed

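Poly(A) RNA from the DG of 26 rats was sequenced on an Ion Proton. Per the labels and the study's methods, the authors trimmed the reads, aligned them to rn6 with STAR 2.5.3a in Partek Flow, and deposited median ratio normalized counts, a signal that is neither raw counts nor scaled to gene length. Sums and ratios over genes are therefore not corrected for gene length and are compared between groups only. The strand setting of the counting was not given in the sources used here. The 24012 transcript rows were summed by gene identifier. Low values came in steps of about 1 read, which gave the depth estimate. Whole reads came out for 69.5% to 77.8% of low values of genes with 1 row and for 25.2% to 29.3% of those with several, so no count test was run.

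Values were tested as log2(value + 1) for genes whose mean reached 5, in 1 fit over all rats with limma 3.58.1 (lmFit, eBayes with trend, R 4.3.3). The call threshold was an unadjusted p under 0.01, and adjusted p-values are Benjamini-Hochberg over 15595 genes. Relations used 100000 permutations (scipy 1.17.1), and the relation family had 8 members, of which 1 is not reported here. The tests were run on simulated data first. The authors' table of sample attributes held no measurement and served only to check which columns were Veh. The members and lists were chosen with earlier results of these data known. The text names every member called in any comparison, all class II and RT1-A genes, the 16 named genes, the 3 other class I genes of highest mean (a choice of well-measured genes, not a ranking of expression), and from each other list the genes called. The other class I members and some uncalled list genes were named after their values were seen. Replicate numbers did not pair the rats. The alternatives changed the pseudocount (0.5 and 5), the filter (none and 20), the scaling (upper quartile and quantile), the variance model, library weights, the kind of library, the replicate block, the transcript rows and each rat in turn, and the kinds were also fitted alone.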

Additional observations from a re-analysis of the deposited data

Results flagged for a closer look

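Samples far from the rest of their group, by Dixon's gap test at the 95% level, were found in 11 of 105 group values of tested members, where chance gives about 1 in 20. RT1-A2 was flagged in all groups, always at the top. It stood at 485 normalized counts in Veh replicate 9 (the next was at 342), at 443 in Dox replicate 14 (next 280) and at 309 in Dox + ABT replicate 4 (next 237), and these 3 libraries were of the second kind. Dox + ABT replicate 4, the only library of the second kind in its group, was also highest in Ctss (2002, next 1407) and in Psme1 (550, next 459). Dox + ABT replicate 12 was highest in RT1-CE7 (374, next 265) and RT1-S3 (522, next 399). Dox replicate 14 was highest in Psmb8 (84.6, next 53.9), and Veh replicate 10 in Erap1 (217, next 173). The lowest values that stood apart were RT1-CE4 in Dox + ABT replicate 3 (110, next 140) and Psme1 in Veh replicate 11 (274, next 469).

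The difference of Dox from Veh changed with the kind of library for 2 of the 35 tested members, where 7.75% of all 15595 genes did at an unadjusted p under 0.01 in limma. For Canx the second kind exceeded the first by 0.46 on the log2 scale (interaction p = 0.000985), and for Pdia3 by 0.54 (p = 0.00278). The kinds were read from the same table as these differences.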

How the results depend on the processing

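No alternative reversed the direction of a called difference. The share of all genes called was taken for the main fit only, so counts under the other fits stand without one. The count of members called moved by over 1.5 times in these settings. With library weights (arrayWeights) it was 5 in Dox against Veh and 8 in Dox + ABT against Veh. In Dox + ABT against Veh it was 0 with library kind as a covariate, 0 in libraries of the first kind only and 1 with the replicate block. With transcript rows as deposited it was 5 in Dox against Dox + ABT. Smaller moves gave 4 in Dox against Veh (transcript rows), 3 in Dox + ABT against Veh (quantile) and 4 in Dox against Dox + ABT (upper quartile, library weights, kind covariate and first kind only). The first and second kinds fitted alone called 3 and 2 members in Dox against Veh, with RT1-T24-4 and B2m among the former only. With a minimum mean of 20, the class II median was -0.19 in Dox against Veh and 0.055 in Dox against Dox + ABT.

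Leaving out each rat in turn gave 2 to 4 called members in Dox against Veh, 1 to 4 in Dox + ABT against Veh and 2 to 5 in Dox against Dox + ABT. In Dox + ABT against Veh the count was 1 without Veh replicate 1 or 9 or Dox + ABT replicate 3, 5 or 6, and 4 without Veh replicate 10. In Dox against Dox + ABT it was 5 without Dox replicate 10. The class I median then ranged from -0.18 to -0.04, from -0.13 to -0.02 and from -0.13 to 0.00, and the class II median from -0.91 to -0.59, from -0.32 to -0.10 and from -0.69 to -0.37.

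The relation of Cd74 with RT1-Da was 0.68 in the second kind of library, no longer past the adjusted threshold. That of Tap1 with Psmb9 was 0.32 without the 2 farthest rats, 0.12 in the first kind and 0.61 in the second.

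The shared replicate numbers came with correlations of deviations between -0.17 and 0.30 over 16 pairs, 6 of them over 0.1, so the samples share only a number. The block called 3 members in Dox against Veh (Erap1, RT1-S3 and RT1-T24-4), 1 in Dox + ABT against Veh (Psmb9) and 2 in Dox against Dox + ABT (Erap1 and RT1-T24-4). With it, RT1-T24-4 kept its calls, while B2m was at p = 0.047 and 0.024, Psmb9 in Dox at 0.0152, RT1-A2 at 0.0126 and RT1-M6-2 at 0.262 (limma). Library weights put B2m in Dox against Veh at p = 0.0249, and the exact permutation test put Psmb9 in Dox against Veh at p = 0.0108. The cause of these shifts was not tested. The depth limits RT1-Ba, RT1-Bb, RT1-Da, RT1-Db1 and RT1-DOb, which were near the worth of single reads in some rats.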
